A study of Mus musculus with 18 samples.

Results

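m6A is a methyl group on adenosines inside mRNA. A writer complex built on METTL3 and METTL14 places it, FTO and ALKBH5 remove it, and reader proteins of the YTH family bind it and act on splicing, export, translation and decay of the transcript. It is found mostly in long internal exons, around stop codons and in 3′UTRs, within a short sequence called DRACH, where R stands for a purine, D for any base but C and H for any base but G. In m6A-seq, fragments of mRNA are pulled down with an antibody against the mark, and places where the pulled-down (IP) reads stand out over the input reads are peaks. The sites described here were m6A peaks of the mouse uterus that were lower after lipopolysaccharide (LPS), a bacterial cell wall component that sets off inflammation, and higher again when melatonin was given with LPS. They were chosen by both comparisons at once: a peak listed as down in LPS vs Veh on chromosomes 1 to 9 was taken when it shared at least 1 base with a peak listed as up in Mel+LPS vs LPS. Of 6259 LPS-down peaks, 1895 were chosen, or 30.3% (Wilson 95% interval 29.2% to 31.4%), and they are called the lost and regained peaks below. The other 4364 LPS-down peaks are the comparison set. Regained means only listed as higher in Mel+LPS than in LPS. Neither comparison sets Mel+LPS against Veh, so a return to the Veh level is not known. A peak called not regained may only have fallen short of the cutoff for being listed. All 4 deposited tables together hold 41084 peaks.

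Uteri came from wild-type female ICR mice, 8 weeks old, on day 5 of pregnancy. Veh mice received vehicle, LPS mice received LPS at 0.5 mg/kg on days 3 and 4, and Mel+LPS mice received the same LPS after melatonin at 10 mg/kg, which was injected daily on days 1 to 4. Each treatment had 3 input and 3 IP libraries, 18 in all, and how many mice went into a library is not given in the sources used here. The tables hold 1 score per peak and comparison and no value per library, so no value below has a replicate error, no difference was tested over mice, and the depth behind a peak is unknown. The score is read here as the log10 likelihood ratio of MACS2 for a difference between 2 treatments, which its column heading does not state. On that reading, a higher score means stronger support for a difference and not a larger change. Both comparisons used the same LPS libraries, so a peak that was low in LPS by error alone could enter both lists, and part of the overlap is present without any effect of melatonin. The tables hold no RNA level, so a change in methylation and a change in the amount of the transcript, or of the cells that carry it, cannot be told apart. Intervals are 95% intervals that cover counting error only, and peaks of 1 gene share a source. The whole uterus was used, and of the cell type markers looked up, 6 of 7 epithelial, 4 of 6 stromal, 6 of 6 smooth muscle, 3 of 6 leukocyte and 4 of 4 endothelial genes had at least 1 peak in the tables.

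The lost and regained peaks are easiest to see as sequence. The stretches below are the bases that both peaks of a pair cover. Aoc1 and Nod2 come from exons with a high lower score of the pair among coding stretches, and Synm and Mki67 are added as the genes with the most peaks of this kind. They are written 5′ to 3′ in the sense of the gene, from GENCODE transcripts on GRCm38, with each DRACH motif in capitals.
Aoc1, exon 1 of 4, chr6:48905795-48905989, plus strand: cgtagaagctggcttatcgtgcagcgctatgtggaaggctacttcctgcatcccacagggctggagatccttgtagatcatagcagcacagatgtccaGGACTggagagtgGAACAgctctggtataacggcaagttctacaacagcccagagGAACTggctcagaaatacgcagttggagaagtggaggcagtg
Nod2, exon 4 of 13, chr8:88663788-88663959, plus strand: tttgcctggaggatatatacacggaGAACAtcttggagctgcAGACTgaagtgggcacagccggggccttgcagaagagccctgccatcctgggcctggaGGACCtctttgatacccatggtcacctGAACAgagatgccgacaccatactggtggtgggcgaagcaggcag
Synm, exon 4 of 4, chr7:67733742-67733925, minus strand: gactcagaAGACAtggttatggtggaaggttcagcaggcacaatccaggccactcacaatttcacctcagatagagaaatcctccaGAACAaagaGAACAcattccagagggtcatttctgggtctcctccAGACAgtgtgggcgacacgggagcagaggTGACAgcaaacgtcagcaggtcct
Mki67, exon 12 of 14, chr7:135698749-135698967, minus strand: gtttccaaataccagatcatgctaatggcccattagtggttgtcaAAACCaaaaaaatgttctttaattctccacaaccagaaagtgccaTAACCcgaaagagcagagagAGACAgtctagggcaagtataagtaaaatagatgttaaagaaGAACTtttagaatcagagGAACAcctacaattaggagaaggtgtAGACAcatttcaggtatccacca

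The Aoc1 stretch holds 3 DRACH motifs in 195 bases, 1 of them with the GGAC core that METTL3 and METTL14 prefer. The Nod2 stretch holds 4 in 172 bases, the Synm stretch 5 in 184 and the Mki67 stretch 6 in 219. No single motif in a peak of this width can be named as the methylated one. For 3′UTR sites, 25 bases are shown around the GGAC nearest the middle of the shared bases, for the 3 genes with the highest lower score that have one.
Il11, 3′UTR, chr7:4772544-4772568, minus strand: acatgagtatGGACTgtttggtttt
Rbm12b2, 3′UTR, chr4:12095862-12095886, plus strand: atttactaatGGACAtgcttttatt
Klhdc8a, 3′UTR, chr1:132304859-132304883, plus strand: aaagcagtttGGACTacttcctcag

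The scores that follow chose the peaks and are given as a description with no test. Among the lost and regained peaks, the median score in LPS vs Veh was 2.09 (quartiles 1.53 and 3.63, highest 184.7). The other LPS-down peaks had a median of 3.31 (quartiles 1.65 and 4.41, highest 221.6). In Mel+LPS vs LPS, the paired peaks had a median of 2.43, against 2.08 for the 5230 Mel+LPS-up peaks with no partner in the LPS-down list. The lost and regained peaks had lower median scores than the rest in the first comparison and slightly higher ones in the second. The score in Mel+LPS vs LPS was equal to or higher than that in LPS vs Veh for 1115 of the 1895 peaks (58.8%). Both scores reached 2 in 794 peaks, 3 in 417, 10 in 31 and 20 in 11. Their share among LPS-down peaks fell and rose again along the score, with 26.1% of the 3881 peaks that scored at least 2, 20.6% of 2870 at 3, 26.6% of 792 at 6 and 30.9% of 262 at 10.

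**Figure D1:**
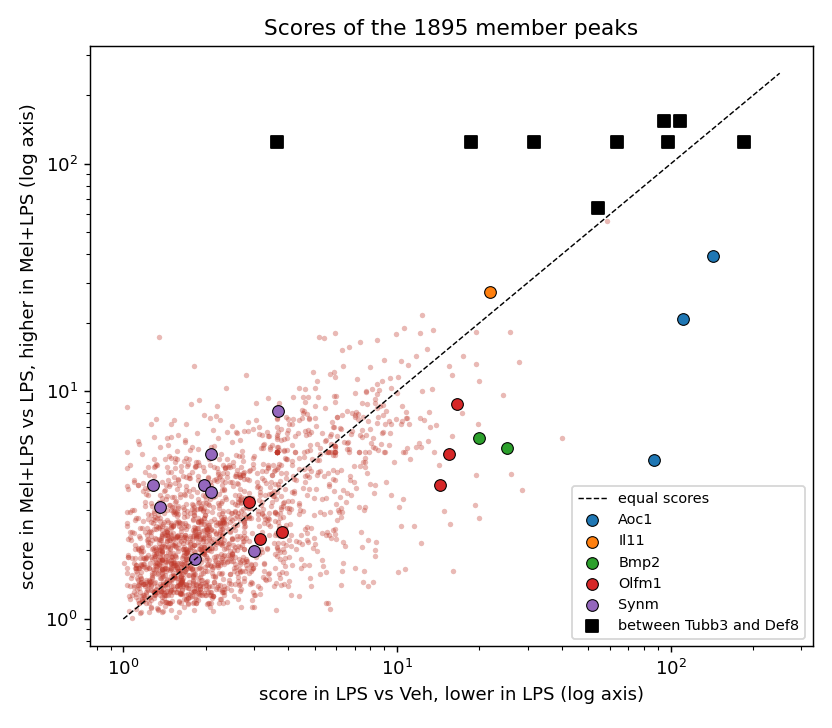
Score of each of the 1895 lost and regained peaks in LPS vs Veh (x) and in Mel+LPS vs LPS (y), both on log axes, with the line of equal scores. Most points lie below a score of 4 on both axes (upper quartiles 3.63 and 4.14), the 3 Aoc1 peaks lie far to the right at 86.6 to 142.7, and the 9 peaks between Tubb3 and Def8 lie at the top with paired scores of 63.8 to 154.9.

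The pairs mostly covered the same place. The shared stretch had a median of 147 bases, 1674 peaks (88.3%) were covered over at least 50% of their width and 498 (26.3%) over their whole width. The centres of the paired peaks were a median of 24 bases apart. The median width was 183 bases, against 164 for the other LPS-down peaks, and a wider peak meets a partner more easily. At the edge of the rule, a peak in Amigo1 shared 2 bases with its partner, and peaks in Postn and Gm13167 shared 3 each. Just outside it, peaks in Lrp8, Usp2 and Supt7l lay 1, 4 and 5 bases from the nearest Mel+LPS-up peak. The share of LPS-down peaks that were regained was alike across chromosomes, from 29.1% of 788 on chromosome 1 to 32.8% of 751 on chromosome 7, with overlapping intervals (26.0% to 32.3% and 29.5% to 36.2%).

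Where the peaks lie in genes was not used by the rule. In the authors' annotation, 50.2% of the lost and regained peaks were in exons other than UTRs, against 32.1% of the other LPS-down peaks, a difference of 18.1 percentage points (Newcombe 95% interval 15.5 to 20.8). Intron peaks were 8.97% against 22.8% (difference -13.8 points, -15.6 to -12.0), and distal intergenic peaks were 5.01% against 12% (-6.97 points, -8.31 to -5.55). Read the other way, 40.5% of the LPS-down peaks in exons were regained, but 14.6% of those in introns and 15.4% of those in distal intergenic sequence. For 3′UTRs, the share was 24.5% against 20.8%, a difference of 3.73 points (1.48 to 6.04). That difference was 0.961 points when at least 50% of the LPS-down peak had to be shared and 0.659 when 50% of both peaks had to be. The Mel+LPS-up peaks without a partner were themselves mostly exonic, with 52.3% in exons, 12.8% in introns and 3.88% in distal intergenic sequence. The exon share of the lost and regained peaks was thus close to that of the list they were intersected with. Over all peaks, their share of 3′UTR peaks was higher than in either remaining list (18.3% in the Mel+LPS-up peaks without a partner). Among peaks placed on transcripts, it was lower than in the other LPS-down peaks, as given below.

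**Figure D2:**
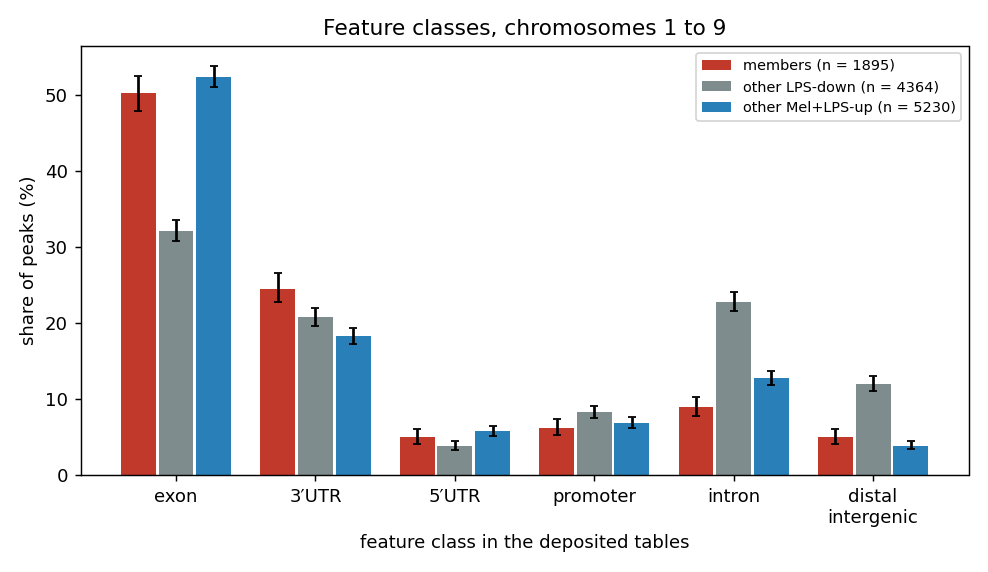
Share of peaks (%) in each feature class of the deposited tables, for the lost and regained peaks (red, labelled members), the other LPS-down peaks (gray) and the Mel+LPS-up peaks with no LPS-down partner (blue), with Wilson 95% intervals. The red bars follow the blue ones for exons (50.2% and 52.3%) and distal intergenic sequence (5.01% and 3.88%), and the gray bars are lower for exons (32.1%) and higher for introns (22.8%).

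The peaks were then placed on the GENCODE annotation, with 1 transcript chosen per protein-coding gene (11905 genes on these chromosomes). Peak centres fell on such an exon for 935 lost and regained peaks (49.3%) and 1351 others (31.0%), and 40.9% of these LPS-down peaks were regained. Many exon peaks ran off their exon. Of 824 lost and regained exon peaks that shared bases with an exon of a chosen transcript, 315 lay inside it and 500 ran past 1 of its ends. In 492 of those 500 (98.4%), the end passed was the 3′ end in the direction of transcription. Among the other LPS-down peaks it was 781 of 800 (97.6%). The median peak had 47.1% of its bases on exons in the first set and 33.9% in the second. The Tpx2 peaks show this, where 5 of 6 covered 41 to 79 bases of a coding exon and continued into the intron after it. The listed position of a peak was thus shifted downstream of the exonic sequence on both strands, and results that depend on position were also computed after moving the centres 100 bases upstream and with each peak placed on the exon that shared the most bases. The cause of the shift was not tested.

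With placement on the exon that shared the most bases, 1429 lost and regained peaks (75.4%) were placed in 1154 genes, and 39.3% of all LPS-down peaks so placed were regained. Coding sequence held 68.5% of them against 60.5% of the other placed peaks (difference 8.0 points, 4.82 to 11.1), the 3′UTR 29.5% against 37.4% (-7.90 points, -11.0 to -4.76) and the 5′UTR 2.03% against 2.13%. The Mel+LPS-up peaks without a partner had 75.9% in coding sequence and 21.6% in the 3′UTR. Placed by the centre, coding sequence held 53.0% against 39.7% and the 3′UTR 44.9% against 58.7%. Among placed peaks the 3′UTR difference thus had the opposite sign to the 3.73 points over all LPS-down peaks. Long internal coding exons, of at least 400 bases, held 14.5% against 7.58% (difference 6.91 points, 4.81 to 9.09), and by the centre 20.6% against 11.1%. The median length of the coding exon was 250 bases against 172. The same exons held 16.9% of the Mel+LPS-up peaks without a partner. Near the stop codon the sets did not separate. Within 200 bases of it lay 24% of the lost and regained peaks and 23.3% of the others by the centre (difference 0.641 points, -2.87 to 4.22), and 19.2% and 20.8% by the shared exon (-1.59 points, -4.22 to 1.10).

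DRACH was searched on the sense strand of the exonic bases of each peak whose centre was on an exon. The lost and regained peaks held 25.2 motifs per 1000 bases and the others 23.7, a ratio of 1.06 (1.02 to 1.11). GGAC alone, counted whatever base followed it, stood at 5.88 against 5.09 per 1000 bases, a ratio of 1.16 (1.07 to 1.25). Followed by G, it is not a DRACH motif. In windows of 200 bases around the centre, which do not depend on width, 67.5% of the lost and regained peaks, 62.0% of the others and 67.9% of the Mel+LPS-up peaks without a partner held a GGAC, against 53.1% of all 184022 windows of that length on the same transcripts. Nearly every window held a DRACH, 99.7% and 99.1% in the 2 sets and 97.6% of all windows. Density along the transcript was highest just 5′ of the centre in both sets. In the lost and regained peaks it was 26.5 per 1000 bases from 100 to 50 bases before the centre and 22.5 from 100 to 150 bases after it, and in the others 26.6 and 20. GC content was 48.6% ± 8.59 (SD over 935 peaks) against 47.3% ± 9.24 (1351 peaks), a difference of 1.30 points (0.566 to 2.04). Within coding sequence it was 50.9% and 51.0%, and within 3′UTRs 45.6% and 44.7%.

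**Figure D3:**
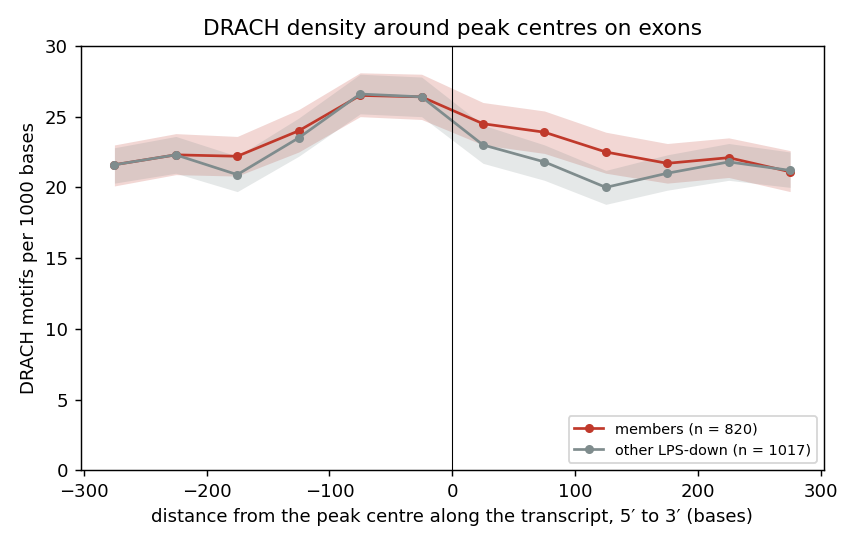
DRACH motifs per 1000 bases in bins of 50 bases along the transcript, by distance from the peak centre, for 820 lost and regained peaks (red, labelled members) and 1017 other LPS-down peaks (gray), with 95% counting intervals as bands. Both lines are highest in the bins just before the centre (26.5 and 26.6) and lower after it (22.5 and 20 from 100 to 150 bases).

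Genes are named below by the exon that shares the most bases with the peak. The authors assigned each peak to the gene with a near transcription start, and only 1024 of the 1895 centres (54.0%) lay inside the assigned gene. In all, 799 lost and regained peaks shared exon bases with the gene they were assigned to.

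The highest pairs of scores came from few loci. Of the 12 peaks with the highest lower score of the pair, 8 lay in 1 stretch of chr8:123425854-123434476 between the RefSeq genes Tubb3, a neuronal tubulin, and Def8, inside the span GENCODE gives Def8 but on no exon of its chosen transcript. All 9 LPS-down peaks of this stretch were regained, with scores of 3.63 to 184.7 in LPS vs Veh, under 3 Mel+LPS-up peaks that scored 63.8 to 154.9. They lie side by side and share partners, so they do not count as 9 separate sites. Aoc1 encodes diamine oxidase, a secreted enzyme that breaks down histamine and putrescine and is made by the pregnant uterus. All 3 of its LPS-down peaks were regained. The 3′UTR peak (chr6:48908740-48909205) scored 142.7 in LPS vs Veh and 39.5 in Mel+LPS vs LPS, and the peaks in its long first exon scored 110.4 and 20.9 (chr6:48905747-48906026) and 86.6 and 4.99 (chr6:48906168-48906919). Every Aoc1 peak scored higher in the first comparison than in the second. Il11, a cytokine needed for decidualization, had a 3′UTR peak (chr7:4772407-4772599) that the authors listed as a promoter peak of Fam71e2, with scores of 21.9 and 27.3. The last of the 12 lay in intergenic sequence assigned to Gm5617 (chr9:48519699-48519868), with 58.3 and 55.8. Nod2, an intracellular sensor of bacterial cell wall fragments, gave the coding stretch printed above, with scores of 10.6 and 19.

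Gene lists were first counted by the gene the authors assigned, against the 30.3% of all LPS-down peaks. Extracellular matrix genes lay above that share with 17 of 27 (63.0%, Wilson 95% interval 44.2% to 78.5%), and so did m6A writers, erasers and readers with 13 of 16 (81.2%, 57.0% to 93.4%). Epithelial secretory and acute-phase genes lay below it with 3 of 32 (9.38%, 3.24% to 24.2%), and the Sprr genes had 0 of 12. The intervals of the remaining lists included 30.3%. Since many assigned genes do not hold the peak, the lists were counted again by the exon that shares the most bases, a placement chosen after the data had been seen, against the 39.3% of all peaks so placed. The counts on exons below are of that second kind. The matrix and epithelial lists stayed on their sides of the share, though by peak centres they had 12 of 22 (34.7% to 73.1%) and 4 of 16 (10.2% to 49.5%), with intervals that included the 40.9% of such peaks. By the shared exon, the m6A list had an interval that included 39.3% (6 of 10, or 60.0%), and smooth muscle genes went from 8 of 30 (26.7%, 14.2% to 44.4%) to 18 of 24.

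Among genes of uterine receptivity and decidualization, 11 of 23 LPS-down peaks on exons were regained (47.8%, 29.2% to 67.0%), and 10 of 25 by assigned genes. They lay in 7 genes. Bmp2, a growth factor that drives decidualization, had 4 LPS-down peaks, of which 2 were regained. They lay in its first exon (chr2:133552477-133552755, scores 25.3 and 5.65) and in its last (chr2:133560991-133561805, scores 20 and 6.23), and the rest scored 11.6 and 11.9 in LPS vs Veh. Wnt4, a secreted factor of the decidualizing stroma, had both of its peaks regained, in the last exon with 4.21 and 3.64 in the 3′UTR and 2.32 and 1.31 in coding sequence. Hand2, a stromal transcription factor that mediates progesterone action, had 2 of 3, at 2.72 and 1.81 and at 1.64 and 1.42. A Cdh1 peak at exon 4 (E-cadherin, the epithelial adhesion protein) scored 15.9 and 11.8 but shared only 16 bases with the exon. Alpl, alkaline phosphatase, scored 15.6 and 2.61, and Fkbp4, a co-chaperone of the progesterone receptor, had 2 of 2 between 1.31 and 1.89. The Fkbp4 peaks had only 32 and 33 bases on exons. Il11 had 1 of 2, the other at 12.3. Muc1, Klf4, Ncoa2 and Cebpb had LPS-down peaks on exons, none of them regained.

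Smooth muscle genes had 18 of 24 on exons (75%, 55.1% to 88.0%), above 39.3%, but by assigned genes their share was not set apart from 30.3%. By peak centres these genes had 10 of 13 (76.9%, 49.7% to 91.8%), above the 40.9% of such peaks, with 7 of the 10 in Synm. The result for this list thus rests on whether peaks are given to genes by exons or by the authors' assignment. It also rests in good part on 1 gene, whose peaks share a source. Synm, which encodes the intermediate filament protein synemin, held 8 of the 18, and all 8 of its LPS-down peaks were regained. Of these 8, 6 lay in its last exon, which is 6747 bases long, and were assigned by the authors to Gm34140. Their scores ran from 1.28 to 3.68 in LPS vs Veh and from 1.99 to 8.17 in Mel+LPS vs LPS. Actg2, smooth muscle gamma actin, had 4 of 5, with 4.03 and 3.06 for the highest pair. Des, the muscle intermediate filament desmin, had 3 of 4, with 4.75 and 1.72 in the 3′UTR. Tagln, Cnn1 and Cald1, which bind actin, had 1 each with scores of 1.13 to 2.52. Cacna1c, Itga8 and Tpm1 had 1 LPS-down peak each on exons, none of them regained. In LPS vs Veh, the regained smooth muscle peaks scored at most 4.75, below the regained peaks of Aoc1 and Bmp2, while in Mel+LPS vs LPS the highest Synm score (8.17) was above both of Bmp2.

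Extracellular matrix genes had 26 of 43 (60.5%, 45.6% to 73.6%) in 15 genes. Some of these peaks had few bases on exons, such as 4 in Loxl1 and 5 in Col3a1. Of the fibril and network collagens, Col4a1 had 3 of 5 (highest pair 4.39 and 7.47 at exon 25), Col6a3 2 of 3 (3.14 and 6.97 in exon 3), and Col1a2 2 of 2 (1.84 and 2.28, 2.39 and 1.37). Tnc, the adhesion-modulating protein tenascin-C, had 2 of 2 under 1 Mel+LPS-up peak that scored 4.73. The laminin chains Lamb2 and Lamc1 had 2 of 2 each. Eln, elastin, had 6.81 and 3.52 in the 3′UTR, and Postn, periostin, had 3 of 5, 1 of them by an overlap of 3 bases. Col5a1, Fbn1 and Col12a1 had 3, 2 and 2 LPS-down peaks on exons and none regained.

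Epithelial secretory and acute-phase genes were on the other side. Of their 36 LPS-down peaks on exons, 4 were regained (11.1%, 4.41% to 25.3%). The 4 were the 3 of Aoc1 and 1 of Pigr, the receptor that carries IgA across the epithelium (2.99 and 1.67). Clca1, a secreted modulator of chloride channels, had 9 LPS-down peaks with scores of 53.1 to 221.6, the 3 highest in the LPS-down table on these chromosomes among them, and none was regained. The nearest Mel+LPS-up peak lay 80247 bases from the highest of them. Ltf, the estrogen-responsive lactoferrin, had 0 of 7, Prap1 0 of 4 and Lcn2, lipocalin-2, 0 of 4. The small proline-rich Sprr genes, which code for cornified envelope proteins, had 0 of 12 by assigned genes. That allows a share of up to 25% (3 counts of the total). On exons they had 0 of 7, for which the same 3 counts allow up to 42.9%, above 39.3%. The Wilson interval of 0 of 7 (0% to 35.4%) lies below 39.3%. Whether the Sprr genes are set apart from 39.3% on exons thus depends on the bound used. Several of these genes have similar sequences, and whether reads were split among them was not tested.

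**Figure D4:**
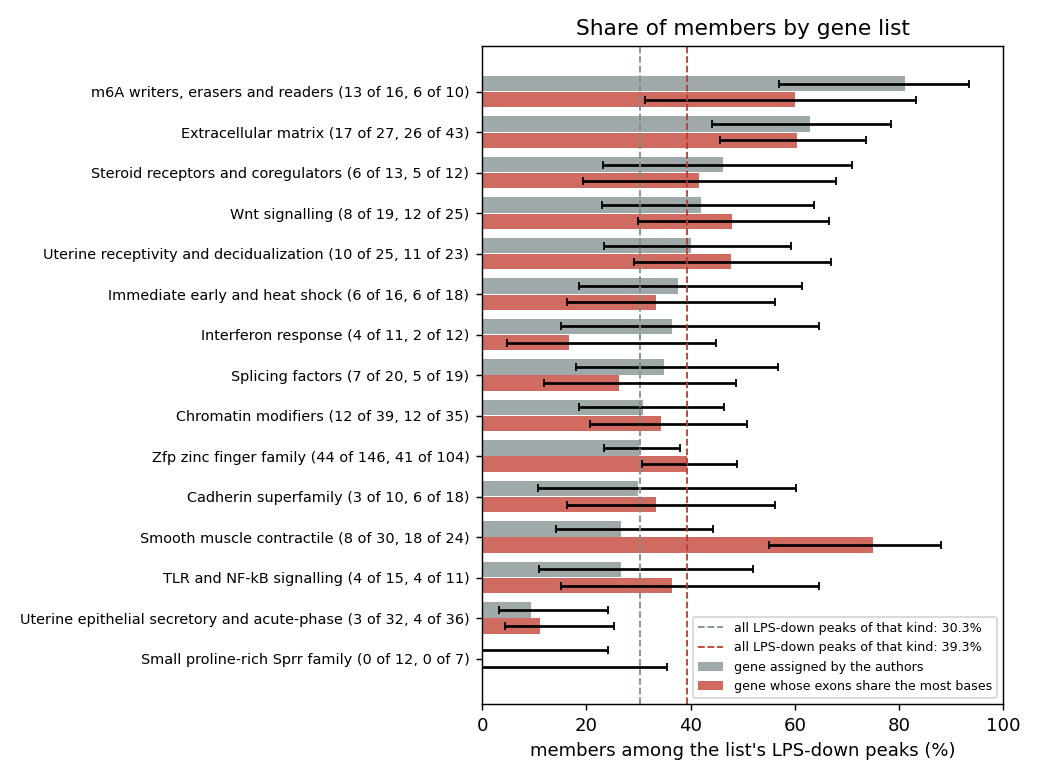
Share of LPS-down peaks that were lost and regained (members, %) in each gene list with at least 10 LPS-down peaks by assigned gene, counted by the gene the authors assigned (gray) and by the exon that shares the most bases (red), with Wilson 95% intervals and both counts beside the names. Dashed lines mark 30.3% and 39.3%, the shares over all LPS-down peaks of each kind, and the smooth muscle bars (26.7% and 75%) lie on different sides of them while both matrix bars (63.0% and 60.5%) lie above and both epithelial secretory bars (9.38% and 11.1%) below.

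The other lists had intervals on exons that included 39.3%. Of the m6A writers, erasers and readers, 6 of 10 LPS-down peaks on exons were regained, all of them in genes of reader proteins. The writer genes Virma, Rbm15b and Zcchc4 had 1 LPS-down peak each (1.86, 1.82 and 9.49), none of them regained. Ythdc1, the nuclear reader, had 1 of 1 at its second exon (chr5:86815691-86815890, scores 13.2 and 6.97), but only 40 of the peak's 200 bases lay on exons. Ythdf1, a cytoplasmic reader, had 3 of 4 in its long exon 4, with scores of 1.44 to 1.83 in LPS vs Veh and 2.27 to 4.68 in Mel+LPS vs LPS. Ythdf2, the reader linked to decay, had 1 of 1 (2.57 and 1.74), and Hnrnpa2b1 1 of 1 (2.22 and 1.70, with 47 bases on exons). The 13 of 16 by assigned genes included 3 peaks assigned to Mettl14 that lay in Sec24d in the authors' own annotation. Of the genes the study measured in the uterus, no exon of Mettl3, Mettl14, Fto, Myd88, Rela, Sqstm1, Becn1, Atg5, Atg7, Bcl2, Bax, Casp9 or Mtnr1b held an LPS-down peak here, though several of these genes lie on chromosomes outside the part used. Tlr4, the LPS receptor, had 1 such peak (1.27), which was not regained, and the peak assigned to Bax (1.17 and 1.71) lay in the 3′UTR of Dhdh. In TLR and NF-κB signaling, 4 of 11 were regained, 3 in Il1r1, the receptor of interleukin-1 (highest pair 5.10 and 5.01), and 1 in the 3′UTR of Il1b (2.28 and 1.92).

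Wnt genes had 12 of 25, among them 3 in the last exon of Ror1 and 2 in Fzd1, whose pairs were 5.64 and 2.35 and 2.30 and 3.70. Steroid receptors and their coregulators had 5 of 12, with 3 in Rxra. The Rxra peak at exon 4 had 5.90 and 6.97, but only 25 of its 158 bases lay on exons. Chromatin modifiers had 12 of 35 in 11 genes, led by Suv39h2, a histone H3 lysine methyltransferase (6.05 and 7.68), and Setd2 (5.14 and 4.42). The zinc finger genes with Zfp names had 41 of 104 (39.4%), with Zfp617 at 8.64 and 8.64. Splicing factors had 5 of 19, immediate early and heat shock genes 6 of 18, cadherins 6 of 18, and interferon response genes 2 of 12, both in Zbp1. Apoptosis genes had 4 of 7, leukocyte genes 3 of 5 and autophagy genes 1 of 4, the last in Tsc1 with 7.71 and 6.45.

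Genes with several LPS-down peaks often had a mixture. Counted by centres on exons, 363 genes had at least 2 LPS-down peaks, and in 68 every one was regained, in 103 none and in 192 some. By that count, Mki67 (10), Synm (7) and Map1a (5) had the most regained peaks, and Cenpf, a kinetochore protein gene, had 4 of 7 and Ckap2l, a spindle protein gene, 4 of 4. The genes described next had the most by the shared exon, the placement chosen after the data had been seen. Mki67, the proliferation marker Ki-67, had 10 of 12, with 1.23 to 2.77 in LPS vs Veh and 1.60 to 4.64 in Mel+LPS vs LPS. Of the 10, 9 lay in its exon 12 of 6836 bases, and several fell under the same wide Mel+LPS-up peak. Olfm1, a secreted glycoprotein, had 6 of 6 on exons, with 2.89 to 16.5 and 2.24 to 8.77, and 8 of 10 by assigned genes. Tpx2, a spindle assembly factor, had 6 of 8 with 1.77 to 6.99 and 1.31 to 3.99. E2f8, an atypical E2F repressor, had 5 of 5 with 3.26 to 6.05 and 2.63 to 8.03, all listed by the authors under LOC115486422. Map1a, a microtubule-associated protein, had 5 of 9 in its exon 5, all listed under Trp53bp1, with 1.21 to 5.62 and 1.17 to 7.20. Synm is described above.

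**Figure D5:**
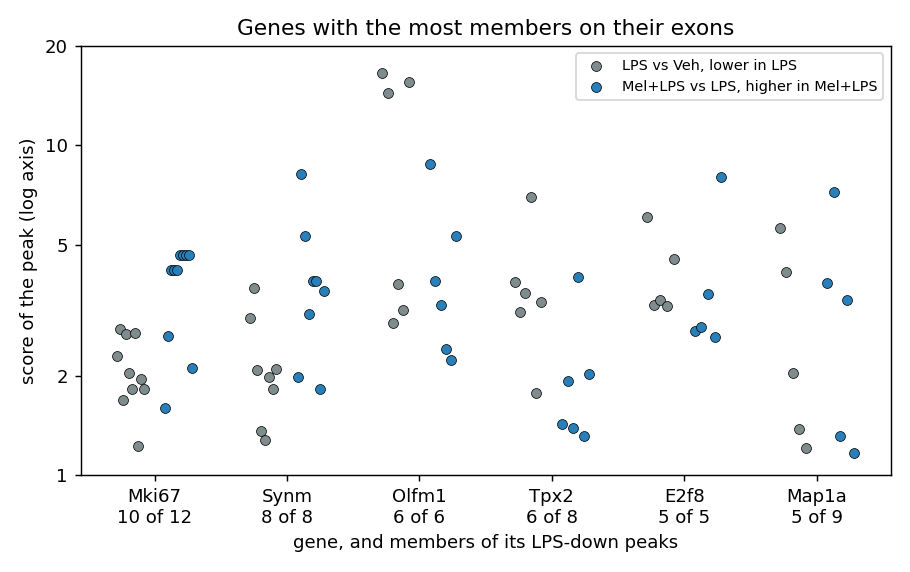
Scores of each lost and regained peak in the 6 genes with the most of them by the shared exon, in LPS vs Veh (gray) and Mel+LPS vs LPS (blue), on a log axis, with the number of such peaks of all LPS-down peaks of the gene under its name. Repeated blue values in Mki67 (4.19 and 4.64) each come from 1 Mel+LPS-up peak over several LPS-down peaks, and the Olfm1 scores in LPS vs Veh split into 3 of 14.4 to 16.5 and 3 of 2.89 to 3.81.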

How the data were processed

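The authors aligned m6A-seq reads with STAR 2.5.2a, compared treatments with MACS2 3.4 and annotated differential peaks with ChIPseeker 1.22.1 (versions from the submitters' processing notes), with coordinates of GRCm38. The paper also names exomePeak2 for calling peaks from the IP and input data. How replicates were combined before MACS2 is not given in the sources used here. The deposited values are scores, 1 per differential peak and comparison, read as log10 likelihood ratios of MACS2, and the tables were used as deposited. The LPS-down table ends inside a line on chromosome 10, so chromosomes 1 to 9 were used. The peaks, the comparison set and the gene lists were chosen with earlier results of these data known.

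Overlap needed at least 1 shared base. Peaks were placed on 1 transcript per protein-coding gene of GENCODE M21 (principal isoform preferred) by their centre, with 2 other placements described in the text. DRACH and GC were counted in the transcript sequences. Shares have Wilson and differences Newcombe 95% intervals, ratios of densities have counting intervals, and the difference in GC has an interval from the spread over peaks. No test was made, since the tables hold no value per library. Named peaks were the 12 with the highest lower score of the pair, the highest per feature class, up to 3 per gene list, those of the genes with the most peaks, the nearest to the edge of the rule, those of genes the study measured and the 3 highest other LPS-down peaks. Further list members and Nod2 were named after their values were seen, not every named peak is reported, and some items are not reported here. Placement by the shared exon was chosen after seeing the data. Steps were tested on simulated data. Python 3.11.15, numpy 2.4.6, pandas 2.3.3, scipy 1.17.1 and matplotlib 3.10.9 were used.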

Additional observations from a re-analysis of the deposited data

Results flagged for a closer look

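The LPS-down table breaks off on chromosome 10 after position 44439614, and the 155 peaks listed before that point were left out of the report. Of these, 33 overlapped a Mel+LPS-up peak, or 21.3% (Wilson 95% interval 15.6% to 28.4%). The share on each of chromosomes 1 to 9 was between 29.1% and 32.8%. The difference was not tested.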

How the results depend on the processing

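The tables give no replicate values, so no library could be left out. No paired analysis was possible because the tables carry no value per replicate and no result comes from a test. The count of lost and regained peaks was 1493 to 1835 under other overlap rules, but 794 with a score of at least 2 in both tables and 417 with at least 3. Merging peaks closer than 100 bases joined none, so it tested nothing. Exon share differences stayed between 14.7 points (class of the peak centre on GENCODE) and 22.1 (scores of at least 3). Intron differences ran from -9.71 points (GENCODE) and -11.5 (50% of both peaks shared) to -16.7 and -18.3 (scores of at least 2 and 3). Distal intergenic differences reached -9.43 points on GENCODE. The 3′UTR difference of 3.73 points went to 0.961 and 0.659 when at least 50% of the LPS-down peak or of both peaks had to be shared. Among only the peaks placed on transcripts it changed sign, to -7.90 points by the shared exon and -13.8 by the centre. The stop codon difference of 0.641 points changed sign, to -1.27 and -2.15 (scores of at least 2 and 3), -1.82 (centres moved 100 bases), -1.74 (within 100 bases) and -1.59 (placement by the shared exon, chosen after seeing the data). The DRACH ratio was 1.13 with scores of at least 3 and 1.16 for GGAC alone, and the GC difference was 2.10 points with scores of at least 2. The causes were not tested. The lists held 145 regained peaks by assigned genes and 109 to 161 under other placements or overlap, and the smooth muscle share changed sides between them (8 of 30 by assigned genes, 10 of 13 by centre and 18 of 24 by shared exon). Other overlap rules kept the differences in score and width in direction. A score does not give the depth behind a peak, and low scores near 1 are the least certain.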
